A study of Mus musculus with 16 samples.

Results

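The growth hormone and STAT5 axis was followed in mouse liver through 10 genes: the growth hormone receptor (Ghr), the transcription factors Stat5a and Stat5b, the feedback inhibitors Socs2 and Cish, the hormone Igf1 and its carrier Igfals, and 3 genes that respond to growth hormone in liver, Elovl3, Keg1 and Bcl6. Members were taken by gene symbol from 30142 genes measured in all, and the probe set of a gene was chosen by its mean level on the 16 arrays, the highest standing for the gene. Each member had exactly 1 probe set, so that choice by level decided nothing for these 10 genes. Total RNA from liver was hybridised to Affymetrix arrays, 1 array per sample, in 4 groups of 4 arrays. The groups were Ppara fl/fl mice after a sham operation, Ppara fl/fl mice after partial hepatectomy (PHx, surgical removal of part of the liver), PparaΔHep mice after sham, and PparaΔHep mice after PHx. Livers of all 4 groups were harvested 12 h after surgery. Ppara fl/fl mice, called wild type in the labels, carry the floxed gene, and in PparaΔHep mice Ppara, which encodes the fatty acid receptor PPARα, was disrupted in hepatocytes only. The Cre driver, the sex and the age of the mice are not given in the labels, and whether every array holds the liver of its own mouse is left unsaid there; p-values therefore rest on the spread between arrays, which may be partly technical. Values are log2 levels made by the authors with RMA, so a difference of 1 is a doubling, and array numbers only name the arrays of a group.

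Growth hormone from the pituitary binds GHR on hepatocytes, the receptor-bound kinase JAK2 phosphorylates STAT5A and STAT5B, and these enter the nucleus and bind DNA. STAT5B, the main form in liver, drives Igf1, Igfals, Socs2 and Cish and represses Bcl6, and SOCS2 and CIS in turn damp signalling at the receptor. In rodents the rhythm of growth hormone secretion differs between the sexes, and through STAT5B it sets the male-biased and female-biased programmes of liver genes.

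Because STAT5 dimers bind the palindrome TTCNNNGAA, in which N is any base, the promoter windows of the members were searched for it on both strands; the motif is its own reverse complement and overlapped no other motif searched. A window runs from 250 bases before a RefSeq transcript start to 50 bases after it (RefSeq, GRCm38.p6), and the table held 14 windows for 8 of the 10 members; Socs2 and Elovl3 had no entry. At least 1 match was found for 4 of these 8 genes, Igfals, Cish, Keg1 and Bcl6, against 9.55% of all 27025 genes in the table. The windows below show 1 window of each of these 4 genes, a pair with low levels after PHx (Igfals, Keg1) and a pair that did not pass (Cish, Bcl6); capitals mark the matches, and the strand is that of the gene.
Igfals, chr17:24877981-24878280, plus strand: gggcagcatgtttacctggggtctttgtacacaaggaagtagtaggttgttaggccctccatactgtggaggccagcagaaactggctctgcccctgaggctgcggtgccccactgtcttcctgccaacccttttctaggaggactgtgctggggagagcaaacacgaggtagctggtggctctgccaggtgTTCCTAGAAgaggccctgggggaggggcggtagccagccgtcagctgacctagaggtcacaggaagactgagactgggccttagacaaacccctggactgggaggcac
Keg1, chr19:12695540-12695839, plus strand: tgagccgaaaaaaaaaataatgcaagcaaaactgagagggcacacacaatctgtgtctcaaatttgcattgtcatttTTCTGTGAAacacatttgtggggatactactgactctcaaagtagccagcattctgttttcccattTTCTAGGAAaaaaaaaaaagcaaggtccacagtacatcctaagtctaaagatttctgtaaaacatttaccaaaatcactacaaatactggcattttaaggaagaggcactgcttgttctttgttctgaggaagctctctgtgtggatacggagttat
Cish, chr9:107296409-107296708, plus strand: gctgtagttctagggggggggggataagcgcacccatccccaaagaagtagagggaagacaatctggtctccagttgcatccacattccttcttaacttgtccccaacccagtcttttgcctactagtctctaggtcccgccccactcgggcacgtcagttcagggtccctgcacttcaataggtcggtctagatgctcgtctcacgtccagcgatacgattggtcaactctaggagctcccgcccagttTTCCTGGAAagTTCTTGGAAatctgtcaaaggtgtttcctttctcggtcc
Bcl6, chr16:23981234-23981533, minus strand: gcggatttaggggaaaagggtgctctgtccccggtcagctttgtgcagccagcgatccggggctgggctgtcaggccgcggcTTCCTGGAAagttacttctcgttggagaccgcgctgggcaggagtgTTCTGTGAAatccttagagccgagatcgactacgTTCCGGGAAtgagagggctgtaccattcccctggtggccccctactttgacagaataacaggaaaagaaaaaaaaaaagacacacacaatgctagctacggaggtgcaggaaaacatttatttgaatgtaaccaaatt

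In Igfals the match TTCCTAGAA began 58 bases before the start of this transcript, and a window of another Igfals transcript held TTCTCAGAA. Keg1 had TTCTGTGAA and TTCTAGGAA, which began 173 and 107 bases before its start. In Cish, TTCCTGGAA began at base 1 past the start and TTCTTGGAA at base 12 past it. Bcl6 held TTCCTGGAA, TTCTGTGAA and TTCCGGGAA in the window shown, and its other window held TTCTCAGAA. These matches describe the letters of the windows; binding of STAT5 was not measured, and a window without the motif says only that the letters are not in it. After PHx, levels of Igfals and Keg1 lay below sham in both genotypes, whereas Cish and Bcl6 did not pass the test in either.

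The arrays carried the RNA of liver, with the mean of 13 hepatocyte markers such as Alb and Apoa1 between 10.51 and 10.76 on every array. On all 16 arrays Xist was low (1.35 to 1.65) and the Y-linked Kdm5d, Uty and Eif2s3y were measured well above it (3.44 to 5.39), the pattern of male RNA. Ppara levels were lower in PparaΔHep than in fl/fl livers by 0.50 ± 0.33 (SE) after sham and 1.17 ± 0.33 after PHx, neither of which passed (adjusted p = 0.681 and 0.326), and its values in the 2 genotypes overlapped after PHx but not after sham. The PPARα target Cyp4a14, over both operations, fell by 4.32 ± 0.78 in PparaΔHep (adjusted p = 0.0349). Array medians over all probe sets differed between operations, 2.05 ± 0.02 after sham and 2.17 ± 0.02 after PHx (SD, n = 8 arrays each), while background control probe sets (1.24 ± 0.03 and 1.01 ± 0.04) and ERCC spike-in probe sets (1.73 ± 0.06 and 1.53 ± 0.04) stood lower after PHx. The tests below are from limma fitted over all 30142 genes, with Benjamini-Hochberg adjustment and a call at an adjusted p under 0.05.

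The first question was what PHx did to the axis in livers with and without hepatocyte PPARα. In fl/fl livers 6 of the 10 members fell (Ghr, Stat5a, Stat5b, Igfals, Elovl3 and Keg1) and 0 rose, where 20.8% of all genes fell and 11.9% rose. In PparaΔHep livers the same 6 fell and 0 rose, against 17.5% and 14.8% of all genes. For these 6 genes all 4 PHx arrays lay below all 4 sham arrays in each genotype, which held for 19.9% of all genes in fl/fl and 16.2% in PparaΔHep. Igfals, Elovl3 and Keg1 were known from earlier results to be low after PHx when the members were chosen, so their counts and changes only describe them; of the other 7, 3 fell in each genotype. The median change over the 10 members was -0.58 in fl/fl and -0.48 in PparaΔHep, beside -0.04 and 0.01 over all genes. These medians include the 3 members known to be low, so they too only describe the members. The split of all called genes depended on the scaling of the arrays: 36.5% in fl/fl and 45.8% in PparaΔHep were higher as deposited, 14.8% and 13.9% with array medians subtracted, and 15.8% and 19.7% after quantile normalization. Under each of these scalings the 6 members fell, while the share of all genes that fell became 43.6% in fl/fl and 43.8% in PparaΔHep with array medians subtracted, and 43.0% and 34.9% after quantile normalization. The share depended on level too. All 6 had a mean of 4 or more, and with only such genes tested 36.2% fell in fl/fl and 40.5% in PparaΔHep. In bulk tissue, fewer cells of a type and less RNA per cell cannot be told apart.

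**Figure D1:**
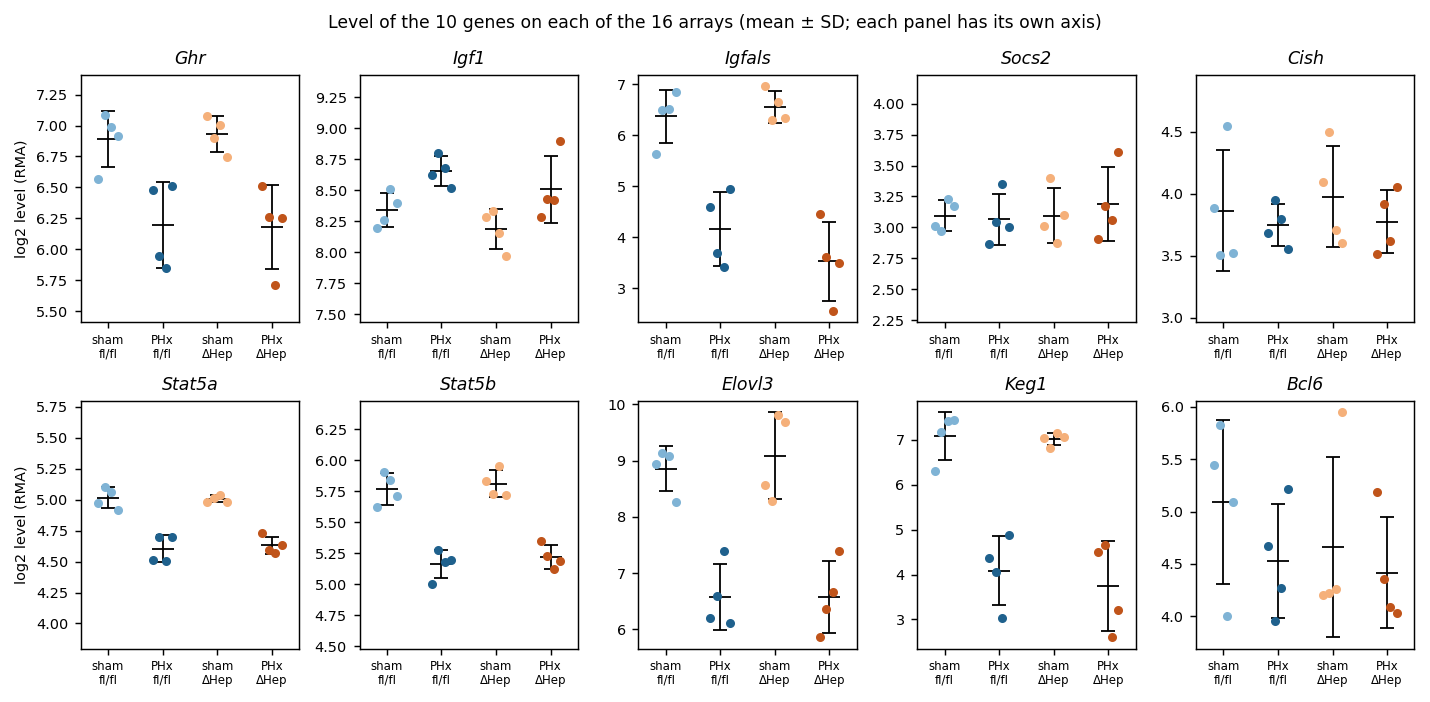
Log2 level of each of the 10 members on each of the 16 arrays, 1 panel per gene with its own vertical axis; points are arrays, and bars are the mean ± SD of each group of 4 (sham and PHx in Ppara fl/fl and PparaΔHep). Points after PHx lie below all sham points of the same genotype for Ghr, Stat5a, Stat5b, Igfals, Elovl3 and Keg1, with groups overlapping for Socs2, Cish and Bcl6.

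Ghr encodes the receptor through which liver senses growth hormone. In fl/fl livers it stood at 6.57, 7.08, 6.99 and 6.92 on the sham arrays and at 6.48, 5.95, 5.85 and 6.51 on the PHx arrays. In PparaΔHep livers the levels were 7.08, 6.90, 7.005 and 6.75 after sham and 6.51, 6.26, 5.71 and 6.26 after PHx. The groups did not overlap in either genotype, though in fl/fl the highest PHx array (6.51) came within reach of the lowest sham array (6.57), and the SD was wider on PHx arrays (0.35 in fl/fl, 0.34 in PparaΔHep) than on sham arrays (0.22 and 0.14). Ghr fell by 0.70 ± 0.18 (SE, n = 4 against 4 arrays) in fl/fl, a 1.62-fold drop (limma adjusted p = 0.00838). In PparaΔHep it fell by 0.75 ± 0.18, or 1.68-fold (limma adjusted p = 0.00515).

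Stat5a and Stat5b encode the transcription factors that carry the signal to DNA, and both fell. Stat5b, the predominant form in hepatocytes, stood at 5.62, 5.91, 5.84 and 5.71 on sham and 5.01, 5.27, 5.18 and 5.20 on PHx arrays of fl/fl livers. In PparaΔHep livers it stood at 5.84, 5.73, 5.96 and 5.72 on sham and 5.35, 5.23, 5.12 and 5.19 on PHx arrays. Every PHx value of Stat5b was below every sham value of either genotype. The change was -0.61 ± 0.08 in fl/fl (1.52-fold lower, limma adjusted p = 4.13e-05) and -0.59 ± 0.08 in PparaΔHep (1.51-fold lower, adjusted p = 4.79e-05).

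Stat5a, the form better known from mammary gland, was at 4.97, 5.10, 5.06 and 4.91 after sham and 4.52, 4.69, 4.50 and 4.70 after PHx in fl/fl livers. Its PparaΔHep levels were 4.98, 5.02, 5.04 and 4.98 after sham and 4.73, 4.59, 4.57 and 4.63 after PHx. Here too no PHx array reached a sham array of either genotype. Stat5a fell by 0.41 ± 0.06 in fl/fl (1.33-fold, limma adjusted p = 1.2e-04) and by 0.37 ± 0.06 in PparaΔHep (1.30-fold, adjusted p = 2.38e-04). The background and spike-in controls given above also stood lower after PHx, and their part in this change, the smallest of the 6, was not tested. Its spread was small: the SD of Stat5a within groups, 0.08, was at percentile 23.1 of all genes, and that of Stat5b, 0.11, at percentile 49.3. Stat5a and Stat5b lie beside each other in the genome and are near-identical in part of their sequence, so how far their probes tell them apart is uncertain here.

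Socs2 and Cish encode inhibitors that STAT5 induces and that close the feedback loop at the receptor; neither passed the test. Socs2 stood at 3.01, 2.97, 3.23 and 3.17 (sham) and 2.86, 3.04, 3.35 and 3.00 (PHx) in fl/fl livers. In PparaΔHep livers it was 3.01, 3.40, 2.88 and 3.10 after sham and 2.91, 3.17, 3.06 and 3.61 after PHx. Sham and PHx arrays overlapped throughout, with differences of -0.03 ± 0.14 in fl/fl (95% interval -0.34 to 0.28, limma adjusted p = 0.895) and 0.09 ± 0.14 in PparaΔHep (-0.22 to 0.40, adjusted p = 0.668). The sign of the Socs2 difference was not stable, turning to 0.02 in fl/fl after cyclic loess and to -0.06 and -0.08 in PparaΔHep with array medians subtracted or quantile normalization.

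Cish, which encodes the inhibitor CIS, stood at 3.88, 3.51, 4.55 and 3.52 on sham arrays of fl/fl livers and at 3.69, 3.95, 3.798 and 3.55 on PHx arrays. The PparaΔHep arrays gave 4.10, 4.50, 3.71 and 3.60 after sham and 3.51, 3.92, 3.62 and 4.06 after PHx. Both sham groups were wide, with array 3 of fl/fl and array 2 of PparaΔHep as their highest values, and covered most of the PHx range. The difference was -0.12 ± 0.23 in fl/fl (95% interval -0.60 to 0.37, limma adjusted p = 0.727) and -0.20 ± 0.23 in PparaΔHep (-0.69 to 0.28, adjusted p = 0.536). Without sham fl/fl array 3 the fl/fl difference was 0.11, of the opposite sign.

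Igf1 encodes the growth factor that liver releases in response to growth hormone, and its levels did not go down with those of the receptor. In fl/fl livers it stood at 8.20, 8.26, 8.51 and 8.40 after sham and 8.62, 8.80, 8.68 and 8.52 after PHx. In PparaΔHep livers it stood at 8.29, 8.33, 8.16 and 7.97 after sham and 8.28, 8.43, 8.42 and 8.90 after PHx. In fl/fl the groups did not overlap, by the margin between 8.51 and 8.52, as was the case for 12% of all genes with PHx above sham; in PparaΔHep array 1 after PHx (8.28) lay among the sham values. The difference was 0.31 ± 0.12 in fl/fl (1.24-fold, limma adjusted p = 0.0572) and 0.32 ± 0.12 in PparaΔHep (1.25-fold, adjusted p = 0.0517), just outside the threshold in both. Over the alternatives Igf1 passed in 7 of 25 in fl/fl, with differences from 0.08 to 0.40 and adjusted p from 0.0152 to 0.600. In PparaΔHep it passed in 5 of 25, with differences from 0.07 to 0.41 and adjusted p from 0.0237 to 0.648. The sign was positive in all of these, though many of them could move only the p-value and not the difference. The size was smallest where the arrays were rescaled to equal medians or distributions.

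Igfals encodes the acid-labile subunit, the liver protein that holds IGF1 and its binding protein in a long-lived complex in blood. It stood at 5.62, 6.49, 6.51 and 6.85 on sham fl/fl arrays and at 4.60, 3.70, 3.41 and 4.95 on PHx fl/fl arrays. In PparaΔHep livers it stood at 6.97, 6.30, 6.64 and 6.33 after sham and at 4.45, 3.62, 2.55 and 3.49 after PHx. The gap between the operations was wide, and so was the spread between PHx arrays, from 2.55 to 4.95 over both genotypes. PHx levels of Igfals were lower by a fitted 4.61-fold in fl/fl (log2 change -2.20 ± 0.39) and 8.20-fold in PparaΔHep (-3.04 ± 0.39). Igf1 and Igfals, whose proteins circulate together, thus lay on opposite sides of their sham levels, though the difference of Igf1 did not pass.

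Keg1, a gene of the glycine N-acyltransferase family, was at 6.30, 7.18, 7.42 and 7.44 after sham and 4.37, 4.05, 3.04 and 4.88 after PHx in fl/fl livers. In PparaΔHep livers it was at 7.05, 6.83, 7.16 and 7.07 after sham and at 4.49, 4.67, 2.60 and 3.22 after PHx. Array 3 was the lowest of the PHx arrays in each genotype, and the groups were far apart. Keg1 had the largest change of the 10 members, 7.999-fold lower after PHx in fl/fl (-3.00 ± 0.44) and 9.72-fold lower in PparaΔHep (-3.28 ± 0.44).

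Elovl3 elongates very long chain fatty acids and is a male-biased gene with a daily rhythm in mouse liver. On fl/fl arrays it stood at 8.93, 9.14, 9.08 and 8.27 after sham and 6.19, 6.59, 7.40 and 6.10 after PHx. On PparaΔHep arrays it stood at 8.57, 8.27, 9.81 and 9.69 after sham and 5.86, 6.36, 6.67 and 7.39 after PHx. The highest PHx array of either genotype (7.40) was below the lowest sham array (8.27). Elovl3 levels were 4.87-fold lower after PHx in fl/fl (-2.28 ± 0.39) and 5.74-fold lower in PparaΔHep (-2.52 ± 0.39).

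Bcl6 encodes a repressor that growth hormone lowers in liver and that can sit on STAT5 sites. Its fl/fl levels were 5.45, 5.82, 4.003 and 5.09 after sham and 4.67, 3.96, 4.27 and 5.22 after PHx. Its PparaΔHep levels were 4.21, 4.23, 4.26 and 5.95 after sham and 5.19, 4.35, 4.09 and 4.04 after PHx. Array 4 of the sham PparaΔHep group stood far above the other 3, and the sham fl/fl arrays alone covered nearly 2 log2 units (4.003 to 5.82). The difference after PHx was -0.56 ± 0.44 in fl/fl (95% interval -1.51 to 0.38, limma adjusted p = 0.354) and -0.24 ± 0.44 in PparaΔHep (-1.19 to 0.70, adjusted p = 0.716). Without sham PparaΔHep array 4 the PparaΔHep difference was 0.19, of the opposite sign.

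The second question was whether loss of hepatocyte PPARα altered the axis, at rest or in its response to PHx. By limma, 0 of the 10 members passed between the genotypes after sham, after PHx or over both operations, where 0.0133% (4), 0.143% (43) and 0.219% (66) of all genes passed. At an unadjusted p under 0.05 the count of members was again 0 in each, beside 2792, 2253 and 1758 of all 30142 genes. At such small shares a count of 0 among 10 does not set the members apart from other genes. For the difference between the PHx changes of the 2 genotypes, 0 of 10 members and 0% of all genes passed. There 0 members and 3400 of the 30142 genes had an unadjusted p under 0.05, which again does not set the members apart.

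Over both operations the genotype difference (PparaΔHep minus fl/fl) ran from -0.27 ± 0.31 for Bcl6 to 0.11 ± 0.28 for Elovl3. The best-measured member was Stat5a, at 0.01 ± 0.04 with a 95% interval from -0.08 to 0.10, followed by Stat5b at 0.05 ± 0.05 (-0.07 to 0.17). Igf1 was -0.15 ± 0.08 (-0.33 to 0.03, limma adjusted p = 0.903) and Ghr 0.01 ± 0.13 (-0.25 to 0.28). For these 4 genes the intervals hold only differences under 1.3-fold in either direction, while for Keg1 (-0.86 to 0.46) and Bcl6 (-0.94 to 0.40) larger differences lie inside them.

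Igfals had the largest difference between the PHx changes, -0.83 ± 0.55, which is a larger drop in PparaΔHep (95% interval -2.01 to 0.35, limma adjusted p = 0.604). After PHx alone Igfals was lower in PparaΔHep by a fitted 0.64 ± 0.39 (adjusted p = 0.764), with all arrays of the 2 genotypes between 2.55 and 4.95 and overlapping. The same difference was -0.28 ± 0.62 for Keg1 (-1.61 to 1.05), -0.24 ± 0.56 for Elovl3 (-1.42 to 0.95) and -0.05 ± 0.25 for Ghr (-0.59 to 0.49). For Stat5b it was 0.02 ± 0.11 (-0.22 to 0.25) and for Stat5a 0.04 ± 0.08 (-0.14 to 0.21), so a difference of the size of the PHx change itself lay outside both intervals. The plot of changes shows these intervals side by side.

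**Figure D2:**
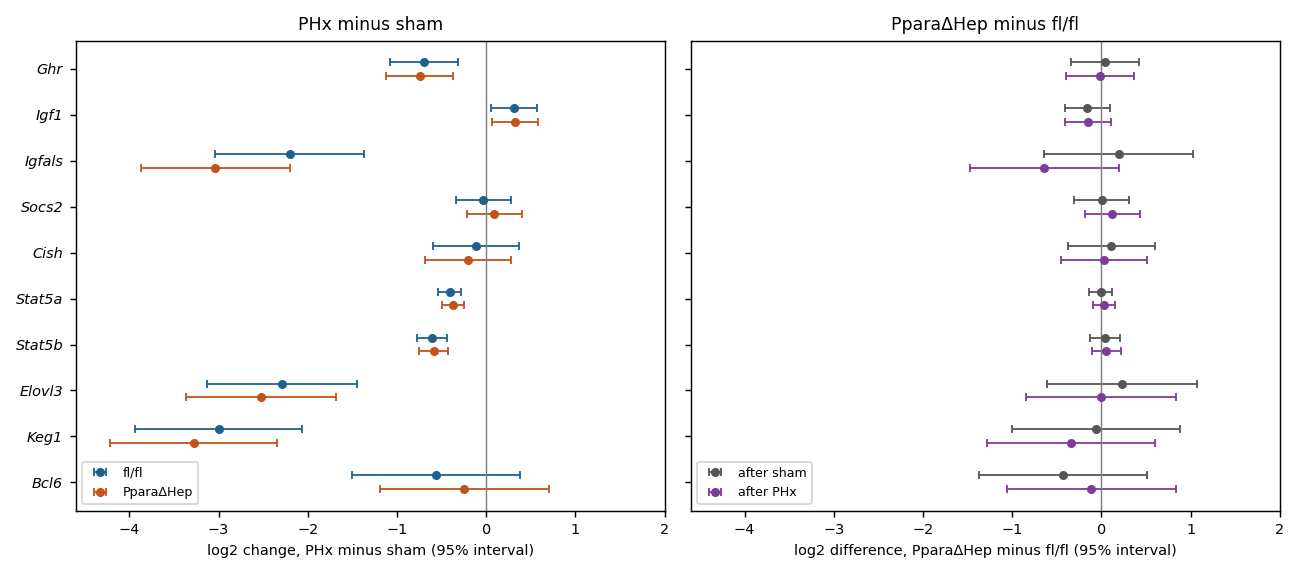
Fitted log2 differences of the 10 members with 95% intervals from limma: PHx minus sham in fl/fl and PparaΔHep livers in one panel, PparaΔHep minus fl/fl after sham and after PHx in the other; the vertical line marks 0. The PHx intervals of 6 members lie wholly below 0 in both genotypes, from Stat5a (-0.41 and -0.37) to Keg1 (-3.00 and -3.28), and the genotype intervals of all 10 members include 0; intervals are not adjusted for the number of genes, so those of Igf1 lie above 0 although it did not pass.

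The members also varied between arrays of 1 group, some of them more than nearly all other genes. The SD within groups was 0.69 for Keg1, 0.70 for Bcl6, 0.62 for Elovl3 and 0.61 for Igfals, at percentiles 99.4 to 99.6 of all genes. On the 4 PHx arrays of fl/fl livers Ghr, Igfals and Keg1 took the same order, with array 4 highest, then 1, 2 and 3, and Ppara shared it; Elovl3 ran the opposite way on the same arrays (3, 2, 1, 4). On the PHx arrays of PparaΔHep livers Ghr, Igfals and Stat5b ran 1, 2, 4, 3, with Ghr near equal on arrays 2 and 4 (6.26 on both), and Keg1 ran 2, 1, 4, 3, while Elovl3 ran 4, 3, 2, 1. Igf1 and Cish shared their order in both groups, 2, 3, 1, 4 in fl/fl and 4, 2, 3, 1 in PparaΔHep, where Socs2 had it too. Among sham fl/fl arrays, array 1 was the lowest for Ghr, Igfals, Keg1, Stat5b, Igf1 and Ppara. These orders rest on 4 arrays each and are given without a test. The sample titles carry a number for each sample whose meaning the labels do not state, so it was used for no grouping. The sham numbers form a run that holds no PHx number, and the PHx numbers lie below and above it. The number thus goes with the operation, and the part of whatever it marks in the differences between PHx and sham was not tested. By that number PHx PparaΔHep arrays 1 and 2 are neighbours, as are arrays 3 and 4; Igfals and Keg1 were higher and Elovl3 lower on the first pair, and the part of whatever the number marks was not tested. In PHx fl/fl livers arrays 3 and 4 are neighbours by number and were the lowest and the highest for Ghr, Igfals and Keg1.

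**Figure D3:**
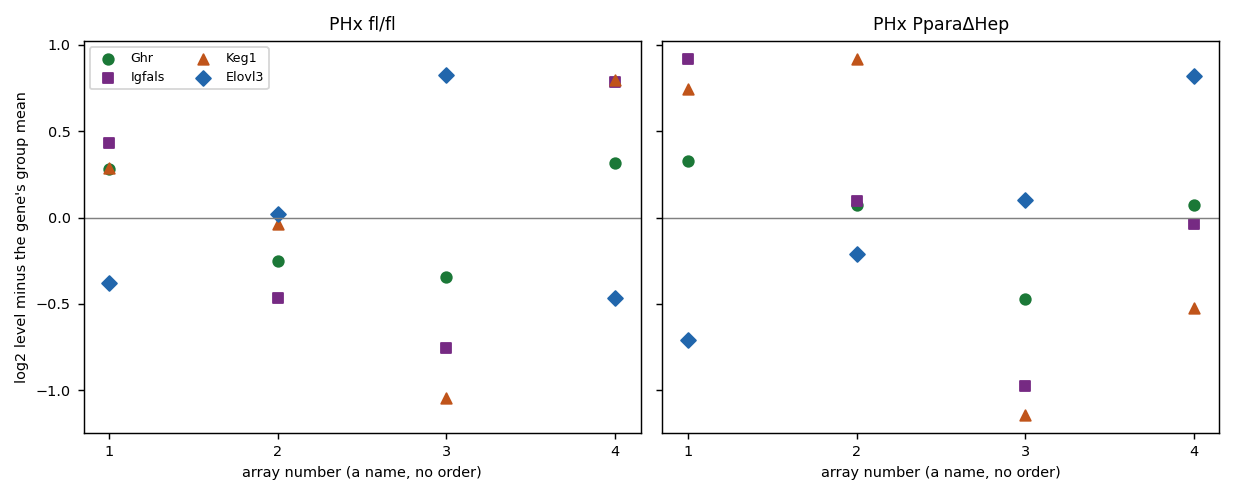
Deviation of Ghr, Igfals, Keg1 and Elovl3 from their group mean (log2) on PHx arrays 1 to 4, 1 panel per genotype; the array number on the horizontal axis is a name with no order, and the line at 0 is the group mean of the gene. In fl/fl livers Ghr, Igfals and Keg1 were highest on array 4 and lowest on array 3, and Elovl3 was highest on array 3 and lowest on array 4.

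For the 3 members whose group means spanned at least 1 log2 unit, the genes most like them over the 16 arrays were taken by the root mean square difference after centring each gene, among 6841 protein-coding genes with a mean of at least 4. The gene closest to Igfals was Keg1, at 0.43, and the gene closest to Keg1 was Igfals. Next to Igfals came Adh4, an alcohol dehydrogenase of hepatocytes (0.46), and Igtp, an interferon-inducible GTPase (0.47). Next to Keg1 came Ppp1r3c, a subunit that targets a phosphatase to glycogen (0.44), and Adh4 (0.49). Elovl3 had no neighbour as close: the clock gene Arntl was first at 0.52, then Apol9b at 0.59 and Bst2 at 0.60. These distances are small beside the SD of the members over the 16 arrays, 1.48 for Igfals, 1.74 for Keg1 and 1.36 for Elovl3, most of which is the step between sham and PHx that all the neighbours share.

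Other genes of the pathway were taken from 5 lists, and each count below is out of the genes of that list that were measured, to be read against the share of all genes that fell (20.8% in fl/fl, 17.5% in PparaΔHep) or rose (11.9% and 14.8%). Those shares depend on level. With only genes of mean level 4 or more tested, 36.2% fell in fl/fl and 40.5% in PparaΔHep, while 7.0% and 6.7% rose. Of 17 genes of growth hormone receptor signalling, 7 fell and 0 rose after PHx in fl/fl, and 7 fell and 0 rose in PparaΔHep; the medians were -0.26 and -0.20. Irs1, the insulin receptor substrate, fell by 0.94 ± 0.24 in fl/fl and by 1.35 ± 0.24 in PparaΔHep (limma adjusted p = 0.00744 and 5.7e-04). The kinase gene Tyk2 fell by 0.66 ± 0.12 and by 0.63 ± 0.12, and the adaptor Grb2 fell by 0.34 ± 0.06 and by 0.47 ± 0.06. Jak2, the kinase bound to the receptor itself, had changes of -0.36 ± 0.08 in fl/fl and -0.30 ± 0.08 in PparaΔHep, both of which passed (adjusted p = 0.00433 and 0.0112). Ptpn6, a phosphatase that acts on JAK2, was at -0.28 ± 0.15 in fl/fl, which did not pass (adjusted p = 0.178), and -0.65 ± 0.15 in PparaΔHep, which did (adjusted p = 0.00469). With array medians subtracted 11 of the 17 fell in PparaΔHep, where 43.8% of all genes did. With only genes of mean level 4 or more tested, Socs1, Sh2b2, Irs1 and Pias3 dropped out of the 17. Of the rest 3 fell in fl/fl and 4 in PparaΔHep, where 36.2% and 40.5% of all genes tested fell. At that level the share of the list that fell was thus below that of all genes in both genotypes.

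In the IGF system 3 of 12 genes fell and 0 rose in fl/fl, and 4 fell and 0 rose in PparaΔHep, with medians of -0.05 and -0.09; in fl/fl that count is near the share of all genes that fell (20.8%). Igf2r, the receptor that clears IGF2, fell by 0.35 ± 0.07 and 0.51 ± 0.07 (limma adjusted p = 0.00179 and 7.66e-05). Igfbp5, a binding protein that can form the complex with the acid-labile subunit, had changes of -0.26 ± 0.08 and -0.29 ± 0.08, which both passed. Its levels were low, 2.65 to 2.39 in fl/fl and 2.69 to 2.40 in PparaΔHep. Background and spike-in controls also stood lower after PHx, and their part in this change was not tested. Igfbp6 passed in fl/fl (-0.29 ± 0.08) and not in PparaΔHep (-0.06 ± 0.08), and Igfbp3 (-0.11 ± 0.10 and -0.34 ± 0.10) and Igfbp4 (-0.17 ± 0.15 and -0.41 ± 0.15) passed in PparaΔHep and not in fl/fl. The counts were 5 in fl/fl and 8 in PparaΔHep under both array medians and quantile normalization, where 34.9% to 43.8% of all genes fell. With only genes of mean level 4 or more tested, Igf2r, Igfbp1, Igfbp2, Igfbp4 and Igfbp7 remained of the 12. Of these 1 fell in fl/fl and 2 in PparaΔHep, where 36.2% and 40.5% of all genes tested fell. The share of the list was thus below that of all genes in fl/fl and near it in PparaΔHep. Igfbp1, a binding protein that liver makes under stress and fasting, read 8.06, 6.57, 6.28 and 7.81 in sham fl/fl livers and 7.65, 10.12, 9.11 and 7.15 after PHx. Its difference, 1.33 ± 0.73 in fl/fl and 1.25 ± 0.73 in PparaΔHep, did not pass (adjusted p = 0.177 and 0.208), and its groups overlapped.

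Igfbp2, a binding protein secreted by liver, was the 1 gene of the 5 lists that passed between genotypes, and it is named after its values were seen. On sham arrays it stood at 6.74, 6.74, 6.62 and 6.97 in fl/fl and at 6.17, 6.31, 6.36 and 6.36 in PparaΔHep. On PHx arrays it stood at 6.58, 6.64, 6.79 and 6.97 in fl/fl and at 6.12, 5.96, 5.85 and 6.67 in PparaΔHep. The genotypes did not overlap after sham and overlapped after PHx by 1 PparaΔHep array. Over both operations Igfbp2 fell by 0.53 ± 0.10 in PparaΔHep (limma adjusted p = 0.0430). The difference was negative in all 24 alternatives (-0.62 to -0.48) but passed in 8 of them, with adjusted p from 6.32e-04 to 0.124. The call was lost without each of 15 of the 16 arrays in turn and held without PHx PparaΔHep array 4, and it was lost after cyclic loess (adjusted p = 0.0667).

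Of the male-biased liver genes that growth hormone maintains, 10 of 17 fell and 0 rose in fl/fl, and 7 fell and 0 rose in PparaΔHep, with medians of -0.46 and -0.54. Hsd3b5, a steroid enzyme of male liver whose drop was known when the lists were chosen, had changes of -4.02 and -3.68, with levels of 7.33 to 8.78 on sham arrays and 3.17 to 5.33 on PHx arrays; it has close copies, so its identity is uncertain. Slco1a1, a transporter of organic anions, passed in both genotypes, at -0.91 ± 0.14 in fl/fl and -0.66 ± 0.14 in PparaΔHep (limma adjusted p = 1.81e-04 and 0.00189). Selenbp2 was at -1.07 ± 0.27 in fl/fl, which passed, and -0.62 ± 0.27 in PparaΔHep, which did not (adjusted p = 0.00837 and 0.0969). Cyp2u1, a cytochrome P450, fell by 0.87 ± 0.25 in fl/fl, and its change in PparaΔHep was -1.28 ± 0.25. Serpina12 (-0.78 ± 0.17 in fl/fl, -0.83 ± 0.17 in PparaΔHep) and Susd4 (-0.46 ± 0.14 and -0.70 ± 0.14) also passed in both. Cyp4a12a, a P450 of male liver that shares sequence with close copies, had differences of 0.09 and -0.07 that did not pass (adjusted p = 0.712 and 0.799). Moxd1, named after its values were seen, was variable: 5.28 ± 2.42 on sham and 3.49 ± 0.68 on PHx arrays in fl/fl, and 8.38 ± 1.24 and 5.76 ± 1.92 in PparaΔHep (SD, n = 4), with neither PHx difference passing (adjusted p = 0.221 and 0.0766). The PparaΔHep count was 13 with array medians subtracted and 11 after quantile normalization, where 43.8% and 34.9% of all genes fell. Every measured gene of this list had a mean level of 4 or more. With only genes at that level tested, 36.2% of all fell in fl/fl and 40.5% in PparaΔHep, to be set beside 10 and 7 of 17.

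Female-biased liver genes went both ways: 3 of 18 rose and 4 fell in fl/fl, and 4 rose and 0 fell in PparaΔHep, with medians of 0.06 and 0.14. In fl/fl those that rose were Acot3, a peroxisomal thioesterase (1.14 ± 0.37), Tox, a chromatin factor (0.93 ± 0.24), and Fmo2, a monooxygenase (0.63 ± 0.11). In PparaΔHep they were Cyp2b10 (1.32 ± 0.40), Cyp2b9 (0.29 ± 0.05), Cyp2b13 (0.25 ± 0.07) and Sult2a1 (0.15 ± 0.05), of which the 3 P450 genes belong to a family with near-identical copies. Except for Cyp2b10 (2.30 to 3.63), these were rises of probe sets close to the background control medians (1.24 sham, 1.01 PHx): Sult2a1 went from 1.08 to 1.23, Cyp2b9 from 1.57 to 1.86 and Cyp2b13 from 1.66 to 1.91, so these 3 calls are not of genes clearly above background. Those that fell in fl/fl, Atp6v0d2 (-0.44 ± 0.14), Cyp3a44 (-0.41 ± 0.12), A1bg (-0.37 ± 0.09) and Cyp3a16 (-0.28 ± 0.10), changed little in size, with A1bg (2.16 to 1.79) and Atp6v0d2 (1.96 to 1.52) at low levels too. The test of the difference between the PHx changes called 0 of these genes. The balance depended on the scaling. With array medians subtracted 8 of 18 fell in fl/fl, near the 43.6% of all genes that fell. In PparaΔHep 2 rose and 3 fell under that scaling, beside 7.1% and 43.8% of all genes. After quantile normalization 2 rose in PparaΔHep (8.6% of all genes), and after cyclic loess 2 fell in fl/fl (16.6% of all genes). Among the genes of this list, 0 rose and 2 fell in fl/fl, and 0 rose in PparaΔHep, when only genes of mean level 4 or more were tested. Of the 18 only Cyp2a4, Cyp3a16, Cyp3a44 and Cyp17a1 were at that level. Of all genes tested there, 7.0% rose and 36.2% fell in fl/fl, and 6.7% rose in PparaΔHep.

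Among 13 nuclear factors that work beside STAT5 in liver, 1 rose and 5 fell in fl/fl, and 1 rose and 8 fell in PparaΔHep, with medians of -0.24 and -0.54. All but Cux2 had a mean level of 4 or more. With only genes at that level tested, 36.2% of all fell in fl/fl and 40.5% in PparaΔHep, while 7.0% and 6.7% rose. The count that fell is near that share in fl/fl and above it in PparaΔHep. Trim24, a coregulator of nuclear receptors, rose by 1.00 ± 0.15 and 0.55 ± 0.15 (limma adjusted p = 1.92e-04 and 0.0116). Cebpa, which maintains hepatocyte genes, fell by 1.33 ± 0.24 and 1.53 ± 0.24. Nr3c1, the glucocorticoid receptor and a partner of STAT5 on DNA, fell by 0.65 ± 0.11 and 0.73 ± 0.11, and Foxa2 by 0.54 ± 0.13 and 0.74 ± 0.13. Zhx2 passed in both genotypes, at -0.42 ± 0.11 and -0.35 ± 0.11 (adjusted p = 0.00898 and 0.0231). Onecut1 was at -0.76 ± 0.50 in fl/fl and -1.68 ± 0.50 in PparaΔHep, of which the latter passed (adjusted p = 0.257 and 0.0176). After quantile normalization 8 of the 13 fell in fl/fl, where 43.0% of all genes fell. No gene of the 5 lists passed the test of a difference between the PHx changes.

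**Figure D4:**
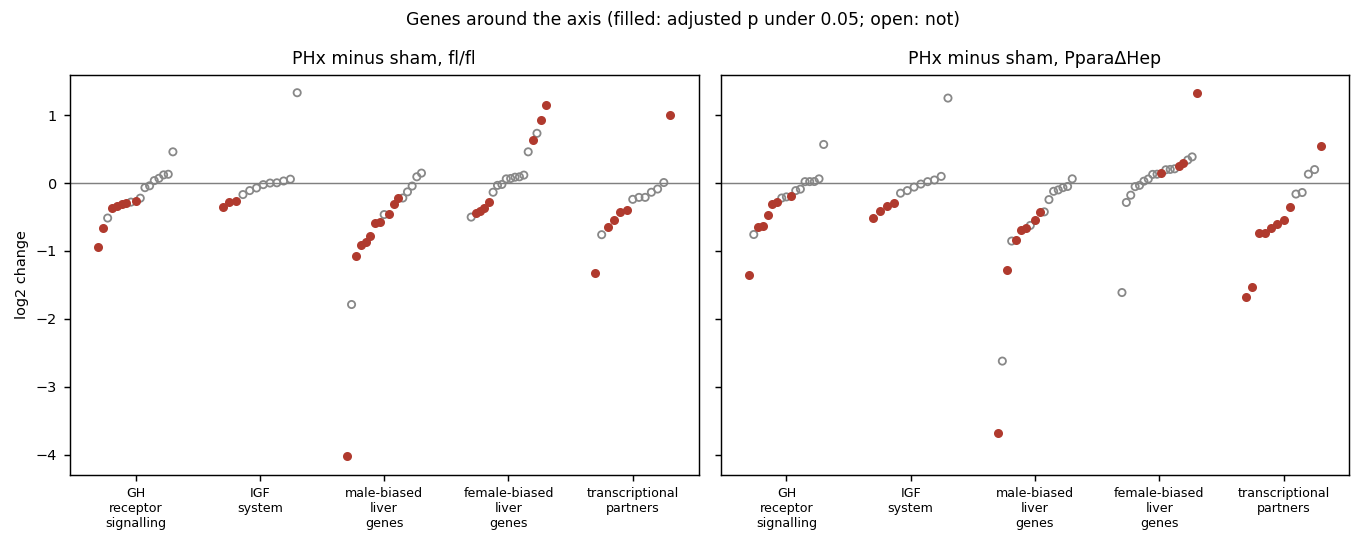
Log2 change after PHx of every measured gene of the 5 pathway lists, in fl/fl and PparaΔHep livers; each point is 1 gene, filled where the limma adjusted p was under 0.05 and open otherwise, and the line at 0 marks no change. Hsd3b5 at -4.02 and -3.68 is the lowest male-biased gene, and the growth hormone receptor signalling genes run down to Irs1 at -0.94 and -1.35.

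Counts of cell type markers after PHx are likewise to be read against the share of all genes that fell (20.8% in fl/fl, 17.5% in PparaΔHep). The shares that rose were 11.9% and 14.8%. With only genes of mean level 4 or more tested, 36.2% fell in fl/fl and 40.5% in PparaΔHep. Of 13 hepatocyte markers 4 fell and 0 rose in each genotype, with medians of -0.12 and -0.05, and their mean per array went from 10.68 to 10.76 on sham and 10.51 to 10.67 on PHx arrays. Of 10 Kupffer cell markers 4 fell in fl/fl and 8 in PparaΔHep, and their mean level was 5.13 to 5.77 on sham and 4.70 to 5.19 on PHx arrays. Of 9 sinusoidal endothelial markers 6 fell and 1 rose in each genotype (5.34 to 5.53 on sham arrays, 4.86 to 5.20 on PHx arrays), and of 8 stellate cell markers 3 fell in each (4.75 to 5.06, then 4.27 to 4.71). Among 7 neutrophil markers 1 rose in each genotype, with array means of 2.55 to 3.08 on sham and 2.50 to 3.89 on PHx arrays. Among 7 lymphocyte markers 4 fell in fl/fl and 0 in PparaΔHep (2.17 to 2.39, then 2.07 to 2.28), and among 4 cholangiocyte markers 1 and 0 fell (2.96 to 3.23, then 2.77 to 3.45). The part of these marker levels in the changes of the axis was not tested.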

How the data were processed

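Liver RNA of 16 samples was measured on Affymetrix arrays. The deposited values are log2 levels made by the authors with RMA (background correction, normalization and summary of probes), per the submitters' processing notes; the software's version and the genome build are not stated in the sources used here. RMA compresses differences near the background. Of 72688 probe sets, 30604 carried 1 symbol in the platform annotation, 2146 several and 39938 were not listed; 827 symbols were updated through Entrez identifiers, which left 30142 genes. The 10 members and the gene lists were chosen with earlier results of these data known.

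All 16 arrays entered 1 fit, with a mean for each group, by limma 3.58.1 in R 4.3.3 (version 1.17.8 of data.table). It had 12 residual degrees of freedom and eBayes defaults. The fit was also run on simulated arrays in which every gene varied independently, so deviations shared between genes were not covered. P-values were adjusted by Benjamini-Hochberg over the 30142 genes and called under 0.05; intervals are at 95%. There were 6 comparisons: PHx against sham within a genotype, genotype after sham, after PHx and over both, and the difference of the PHx changes. All members were reported, and from each list up to 4 rising and 4 falling called genes per PHx comparison by size; Igfbp1, Igfbp2, Cyp4a12a and Moxd1 were added after their values were seen. For arrays, their number limits the precision. Figures were drawn with matplotlib 3.10.9. Alternatives were other scalings, filters, models and leaving out each array.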

Additional observations from a re-analysis of the deposited data

Results flagged for a closer look

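Bcl6 on array 4 of the sham PparaΔHep group stood apart from the other 3 arrays of its group. Its log2 level was 5.95 and the nearest array was at 4.26, a gap of 0.971 of the range of the group, above Dixon's 95% critical value for 4 arrays. It was the 1 such value among the 40 groups of 4 arrays tested over the 10 members, and chance gives about 1 in 20. The sham fl/fl arrays reached 5.82, so the level itself lay near others measured for this gene.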

How the results depend on the processing

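After PHx, 6 or 7 members were called under every alternative in each genotype, the added gene being Igf1, and 0 between genotypes or for the difference of the PHx changes. The 6 falling members (Ghr, Stat5a, Stat5b, Igfals, Elovl3, Keg1) fell and passed in 25 of 25 alternatives in each genotype. Over these alternatives the share of all genes that fell ran from 15.5% to 43.6% in fl/fl and from 13.9% to 43.8% in PparaΔHep. Igfals, Elovl3 and Keg1 were known to be low when the members were chosen, so their passing again only describes them. The least sure of the 6 was Ghr, with limma adjusted p up to 0.0313 in fl/fl and 0.0257 in PparaΔHep. PHx changes of members gave 496 alternative values, of which 476 kept their side, 12 newly passed (all Igf1) and 8 turned sign, none of them called. In many of these alternatives only the p-value of a PHx change could move. They were leaving out arrays of the other genotype, gene filters, probe set means, the robust eBayes fit and the fit of only 2 groups. The sign was fixed in advance there. Genotype differences turned sign in 56 of 734 and differences of PHx changes in 31 of 238, none called. Subtracting array medians moved the median PHx change of all genes to -0.15 in fl/fl and -0.14 in PparaΔHep, and quantile normalization to -0.14 and -0.10. No paired analysis was possible because the array numbers come from accession order and pair nothing. For arrays, signal near the background limits what low genes such as Socs2 can show. Sign turns of PHx differences, none called: Socs2 in fl/fl was 0.017 after cyclic loess and ran from -0.13 to 0.037 when each array was left out in turn; Cish in fl/fl ran from -0.24 to 0.11 (positive without sham fl/fl array 3). In PparaΔHep, Socs2 was -0.057 with array medians subtracted and -0.082 after quantile normalization, and ran from -0.048 to 0.19 over single arrays left out; Bcl6 ran from -0.50 to 0.19 (positive without sham PparaΔHep array 4). The genotype difference over both operations was -0.00043 after cyclic loess and -0.0050 after quantile normalization for Stat5a, and over single arrays left out it ran from -0.0075 to 0.026 for Stat5a and from -0.023 to 0.25 for Elovl3. The difference of the PHx changes for Stat5b was -0.027 with array medians subtracted; over single arrays left out it ran from -0.038 to 0.065 for Stat5b, -0.17 to 0.11 for Ghr and -0.63 to 0.10 for Keg1. What drove each of these turns was not tested. Leaving out 1 array changed the count of all genes called between genotypes most without PHx fl/fl array 3, to 127 after PHx and 120 over both operations, still with 0 members.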
